A study of Mus musculus with 4 samples.

Results

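The genes described here encode the subunits of the 5 oxidative phosphorylation complexes, together with 8 complex I assembly factors that share the Nduf prefix. They are the protein-coding mouse genes whose symbols begin with Nduf, Uqcr, Cox4 to Cox8 or Atp5, or are Sdha, Sdhb, Sdhc or Sdhd. The rule found 96 of the 21883 protein-coding genes on chromosomes 1 to 19, X and Y. Of these, 39 were placed in complex I, 8 among its assembly factors, 4 in complex II, 8 in complex III, 20 in complex IV and 17 in complex V. Open chromatin was mapped by ATAC-seq, which marks DNA that the Tn5 transposase can reach, in the iMGT-Myh6-eGFP-MEF line. The line consists of mouse embryonic fibroblasts in which doxycycline (1 μg/mL) induces Mef2c, Gata4 and Tbx5, 3 transcription factors that push fibroblasts towards a heart muscle fate, and its name carries an eGFP reporter of the heart myosin gene Myh6. Cells were transfected with siControl (2 libraries) or with siChst7 (2 libraries), which targets a chondroitin sulfate sulfotransferase, and were collected on day 1 of induction. Both groups carried the induced factors, so no library here shows the uninduced fibroblast, and everything rests on a single line. Replicates are called biological in the labels, which name no separate cultures, so p-values measure only the spread between these samples.

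The respiratory chain of the inner mitochondrial membrane passes electrons from NADH (complex I) and succinate (complex II) through complex III to oxygen at complex IV, and complex V, the ATP synthase, uses the resulting proton gradient to make ATP. Most subunits are encoded in the nucleus by genes that nearly all cells use, and NRF1, the ETS factor GABP, YY1 and the ERR receptors are known to act on their promoters. Complex IV is unusual in having subunits with alternative forms in particular tissues. Heart and skeletal muscle use Cox6a2, Cox7a1 and Cox8b in place of the widely expressed Cox6a1, Cox7a2 and Cox8a, and the heart depends on oxidative phosphorylation more than most tissues do.

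The promoters of the muscle isoforms Cox7a1 and Cox8b are shown first, because the contrast with the ubiquitous partners is the clearest one among these genes. Those of the partners Cox7a2, Cox8a and Cox6a1 are shown beside them. No promoter sequence was at hand for Cox6a2. Each sequence is the 250 bases upstream of the transcription start in RefSeq (GRCm38.p6, the assembly of mm10), written 5′ to 3′ on the gene's strand. Capitals mark exact matches, on either strand, to 11 motifs: CCGGAAG (ETS factors such as GABPA), GCGCANGCG (NRF1), AAGATGGC (YY1), GGGCGG (SP and KLF), CAAGGTCA (ERR), TAAAAATA (the MEF2 family), AGATAA (the GATA family), AGGTGTG (T-box), TGANTCA (AP-1), CACGTG (E-box) and TATAAA (the TATA box). The first 5 belong to factors known from promoters of this kind or from CpG-rich promoters, and the MEF2, GATA and T-box motifs belong to the families of the 3 induced factors.
Cox7a1 (chr7:30183921-30184170, plus strand): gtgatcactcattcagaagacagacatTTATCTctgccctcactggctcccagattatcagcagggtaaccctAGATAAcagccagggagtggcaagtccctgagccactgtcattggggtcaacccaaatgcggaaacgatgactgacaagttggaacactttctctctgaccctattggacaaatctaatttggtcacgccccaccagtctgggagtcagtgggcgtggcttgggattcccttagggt
Cox7a2 (chr9:79759854-79760103, minus strand): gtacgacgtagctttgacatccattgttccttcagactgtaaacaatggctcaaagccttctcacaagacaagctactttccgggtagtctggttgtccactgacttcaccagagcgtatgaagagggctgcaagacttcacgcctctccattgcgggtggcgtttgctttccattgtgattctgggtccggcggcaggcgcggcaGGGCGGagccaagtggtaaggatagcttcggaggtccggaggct
Cox8b (chr7:140900447-140900696, minus strand): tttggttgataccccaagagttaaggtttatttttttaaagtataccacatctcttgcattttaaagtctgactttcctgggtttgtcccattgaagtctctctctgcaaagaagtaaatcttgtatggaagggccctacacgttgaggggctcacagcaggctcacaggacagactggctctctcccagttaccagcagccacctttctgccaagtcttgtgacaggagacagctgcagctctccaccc
Cox8a (chr19:7217617-7217866, minus strand): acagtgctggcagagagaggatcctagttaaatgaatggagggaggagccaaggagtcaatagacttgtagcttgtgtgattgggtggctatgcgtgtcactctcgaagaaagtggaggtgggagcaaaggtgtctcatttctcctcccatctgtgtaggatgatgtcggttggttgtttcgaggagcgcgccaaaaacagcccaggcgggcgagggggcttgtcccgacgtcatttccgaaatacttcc
Cox6a1 (chr5:115348959-115349208, minus strand): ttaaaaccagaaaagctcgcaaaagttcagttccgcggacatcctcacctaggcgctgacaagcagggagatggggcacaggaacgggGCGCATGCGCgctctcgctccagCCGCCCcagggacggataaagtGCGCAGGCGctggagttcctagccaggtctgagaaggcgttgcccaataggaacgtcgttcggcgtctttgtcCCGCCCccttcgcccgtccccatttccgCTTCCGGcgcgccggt
In Cox7a1 the capitals are a pair of GATA matches, 177 and 223 bases upstream of the start. In Cox7a2 they mark an SP match 44 bases upstream. Cox6a1 held 3 NRF1 matches, those at 161 and 162 bases overlapping on opposite strands, with an ETS match 16 bases upstream and SP matches at 44 and 139. Neither Cox8b nor Cox8a held a match in these upstream bases, and the lack of a match says only that these letters are not in the window. With the first 50 bases after the start included, Cox8a held an ETS match and Cox8b a TATA match. The muscle promoters shown, those of Cox7a1 and Cox8b, held few CpG dinucleotides. Counted over 300 bases, from 250 before to 50 after the start, the ratio of observed to expected CpG was 0.11 at Cox8b and 0.33 at Cox7a1, against 0.84 at Cox8a, 0.83 at Cox7a2 and 1.08 at Cox6a1. Low ratios were not confined to muscle forms, since Cox7b had 0.37 and the complex I gene Ndufc2 had 0.48.

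Promoters of ATP synthase and complex I genes that carried strong accessible regions are shown for comparison, with the short gene Ndufb4b, which carried none although it is named as a copy of Ndufb4.
Atp5b (chr10:128083057-128083306, plus strand): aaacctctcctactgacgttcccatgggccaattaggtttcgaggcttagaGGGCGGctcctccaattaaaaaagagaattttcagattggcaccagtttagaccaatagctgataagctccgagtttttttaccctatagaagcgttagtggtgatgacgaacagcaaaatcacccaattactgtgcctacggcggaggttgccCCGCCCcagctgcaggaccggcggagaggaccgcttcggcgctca
Ndufb4 (chr16:37654369-37654618, minus strand): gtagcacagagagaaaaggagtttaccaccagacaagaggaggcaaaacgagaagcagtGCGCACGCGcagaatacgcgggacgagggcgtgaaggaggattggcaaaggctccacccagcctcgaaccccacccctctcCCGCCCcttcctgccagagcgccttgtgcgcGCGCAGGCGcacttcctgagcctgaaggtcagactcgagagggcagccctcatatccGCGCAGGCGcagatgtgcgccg
Ndufb4b (chr19:25032858-25033107, plus strand): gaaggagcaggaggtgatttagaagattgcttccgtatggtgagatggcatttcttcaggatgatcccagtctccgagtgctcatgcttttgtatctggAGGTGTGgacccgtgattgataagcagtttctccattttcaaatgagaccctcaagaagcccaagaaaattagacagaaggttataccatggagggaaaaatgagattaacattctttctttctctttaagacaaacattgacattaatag
Atp5b held SP matches 45 and 199 bases upstream. Ndufb4 held NRF1 matches 22, 79 and 191 bases upstream and an SP match at 110. Ndufb4b held a T-box match at 151 and no NRF1 or SP match.

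The deposited lists held 66165 to 75696 peaks per library, and siChst7 replicate 2 had the shortest list and the lowest read density, at 0.757 of that in siControl replicate 1. The density of the other libraries lay between 0.964 and 1.02 on that scale. Merging peaks that overlapped by at least 1 bp gave 90239 regions, of which 55924 were called in all 4 libraries, and 14764 lay no more than 1 kb from a protein-coding gene's outer end. Of 10 fibroblast marker genes, 8 carried an end peak in every library, and Pdgfra and Tcf21 had none. Of 8 cardiomyocyte markers 4 (50.0%) had one, near the share of all genes (53.8%), while Actc1, Ryr2, Nkx2-5 and Tnni3 had none. Such peaks were found at 0 of 5 endothelial, 1 of 5 immune, 4 of 5 smooth muscle and 1 of 4 epithelial marker genes. Only outer gene ends were searched, so an open start inside a gene would be missed. Accessibility was measured in bulk, so a region open in fewer cells and one less open in each cell cannot be told apart.

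Most genes of the respiratory chain were accessible at a gene end, and the same ones were accessible in every library. A peak lay within 1 kb of either outer end of 84 of the 96 genes (87.5%, exact 95% binomial interval 79.2 to 93.4) in all 4 libraries. Among all protein-coding genes the share was 53.8%. The remaining 12 genes had no such peak in any library, where the share of all genes with none was 41.0%. The 12 were Cox4i2, Cox5a, Cox6a2, Cox6b2, Cox7a2, Cox7b2, Cox8b, Cox8c, Ndufa4l2, Ndufb4b, Ndufb4c and Atp5d. Each library on its own gave 87.5% of these genes, so the 2 groups did not differ in this share (difference 0.00 percentage points, two-sided exact permutation test, p = 1). With 2 libraries in each group this test cannot go below 0.333. For all protein-coding genes siControl gave 56.73% and 56.95% and siChst7 gave 56.31% and 55.16%, and the lowest value was that of the shallowest library. Binomial intervals cover counting error only, since genes are not replicates.

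The complexes differed mainly through complex IV. Complex I, the NADH dehydrogenase, had an end peak in all 4 libraries at 37 of 39 genes (94.9%, exact interval 82.7 to 99.4), the exceptions being Ndufb4b and Ndufb4c. All 8 assembly factors of complex I, all 4 genes of complex II (succinate dehydrogenase) and all 8 of complex III (cytochrome bc1) had one. Complex V had one at 16 of 17 genes (94.1%, 71.3 to 99.9). Complex IV, cytochrome c oxidase, had one at 11 of 20 (55.0%, 31.5 to 76.9), close to the 53.8% of all genes. With the 8 tissue isoforms set aside, complex IV came to 10 of 12 (83.3%, 51.6 to 97.9). The isoforms themselves came to 1 of 8 (12.5%, 0.3 to 52.7), Cox7a1 alone, and their ubiquitous partners to 6 of 7 (85.7%, 42.1 to 99.6). No test was made between complexes, because genes were chosen by name and differ in number.

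**Figure D1:**
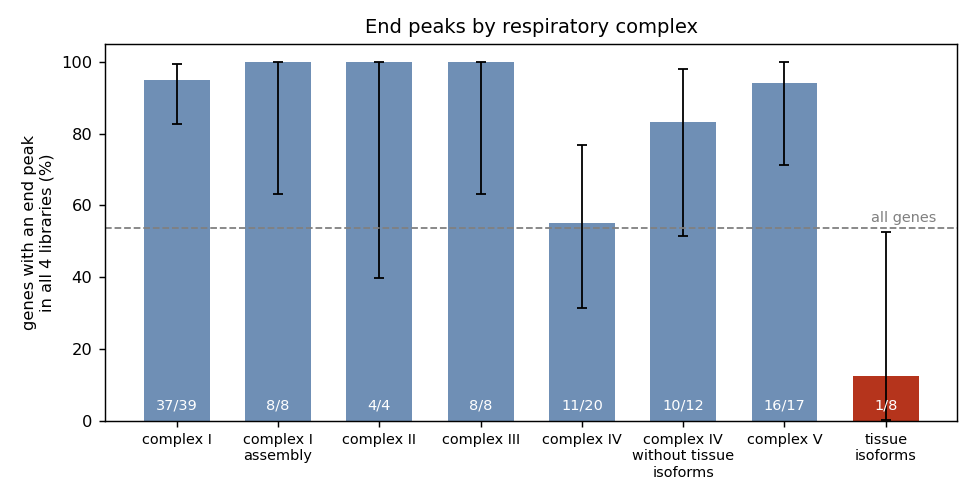
Share of genes with a peak within 1 kb of an outer gene end in all 4 libraries (vertical axis, percent), by respiratory complex. Bars give the share, black lines the exact 95% binomial interval, white figures the genes with a peak over all genes of the set, and the dashed line marks all protein-coding genes at 53.8%. Complex IV stands at 55.0% with its tissue isoforms and at 83.3% without them.

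Part of this list of 12 reflects where the gene table places the outer ends. Cox5a, Cox7a2 and Atp5d, 3 widely expressed subunits, were open at a start that lies inside the outer limits of the gene. The region of Cox5a at chr9:57520734-57521807 lay 3.41 kb inside the gene, with fold enrichments of 11.5 and 11.1 in siControl and 11.2 and 10.1 in siChst7. That of Cox7a2 at chr9:79759400-79760302, which contains the printed promoter, lay 4.16 kb from the nearer end, with fold enrichments of 18.2 and 16.9 in siControl and 17.5 and 18.1 in siChst7. That of Atp5d, the delta subunit of the ATP synthase stalk, at chr10:80141081-80142551, also lay at an end of Cbarp. Fold enrichments are the authors' ratios of summit pileup to local background and belong to each library's own list. When distances were taken from the starts listed in the RefSeq promoter table, 74 of the 78 genes it holds (94.9%) had a peak within 1 kb in all 4 libraries, against 54.1% of all 17491 genes in that table. The other 4 were Cox6b2, Cox7b2, Cox8b and Ndufb4b, and they had none in any library.

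Genes without a promoter in the table included Cox4i1, Ndufb9, Sdhc, Atp5a1, Ndufa2, Atp5mpl, Ndufa4l2, Uqcrb, Cox8c, Cox4i2, Uqcrq, Ndufs1, Ndufaf6, Cox6a2, Uqcrc2, Cox6c and Ndufb4c.

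Accessibility lay over the starts and seldom at the far end of the gene. Among the 78 genes with a listed strand, 71 (91.0%) had a peak at the outer start in all 4 libraries and 7 (9.0%) at the opposite end, against 51.0% and 10.2% of all genes in the promoter table. The 7 with a peak within 1 kb of the opposite end were Atp5b, Atp5k, Ndufa13, Ndufaf8, Ndufb6, Uqcr10 and Uqcrc1. At the short gene Atp5k this was the region over the start itself, which lay within 1 kb of both ends. At Ndufaf8 the call in siControl replicate 2 likewise came from the region over the start. For genes with several listed starts, the first was used for the following positions. The strongest peak covered this start in 72 of the 78 genes in siControl replicate 1, 73 in siControl replicate 2 and 72 in each siChst7 library. At Atp5j it missed the first start but covered the other listed start in all 4 libraries. The median summit lay 46 and 42 bp upstream of the start in siControl and 45 and 47 bp upstream in siChst7. Summits within 200 bp of the start numbered 67 and 67 in siControl and 65 and 67 in siChst7, so their placement was alike in the 4 libraries.

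**Figure D2:**
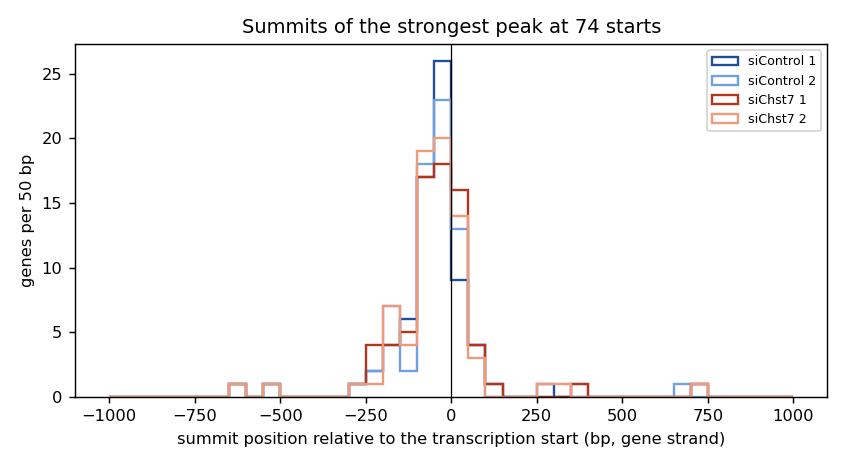
Distance of the strongest peak's summit from the first listed transcription start (horizontal axis, bp on the gene's strand, negative values upstream) for the 74 genes with a peak within 1 kb of a listed start, as the number of genes per 50 bp (vertical axis). Lines stand for the 4 libraries, and all 4 pile up just upstream of the start, with medians of 42 to 47 bp upstream.

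Many of the accessible ends were shared with a neighbouring gene. The strongest end region of 40 of the 84 genes (47.6%) also touched the 1 kb window at an outer end of another gene, against 28.5% of all genes with such a region. The membrane anchor gene Sdhd shared its region with Timm8b and Nkapd1, and the flavoprotein gene Sdha shared one with Ccdc127. Cox4i1 shared one with Emc8, and Atp5j, a coupling factor of the ATP synthase stalk, shared one with Gabpa, which encodes the DNA-binding subunit of GABP. A peak at such an end cannot be assigned to either gene from these lists.

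The regions of these genes were among the stronger ones of the libraries. Strength was expressed as a rank percentile: the 55924 regions called in all 4 libraries were sorted within each library by the authors' −log10 q, and 100 stands for the highest. Genes called highest or lowest below are so by this percentile, and their order by fold enrichment can differ. Of the 99 regions at ends of these genes, 95 were called in all 4 libraries, where 83.2% of regions at any gene end and 62.0% of all regions were. In siControl the median percentile of the 95 was 89.6 and 89.2, in siChst7 it was 89.5 and 88.3, against 78.7 and 79.3, and 78.0 and 78.5, for shared regions at any gene end. At or above the 90th percentile lay 45 of the 95 (47.4%), against 28.6% of gene-end regions, and below the 50th lay 10 (10.5%), against 24.5%. Their median width was 960 bp, against 919 bp at gene ends in general.

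Complex I spanned the widest range of strength outside complex IV. Its strongest regions had a median percentile of 90.5. The highest belonged to Ndufv1, which carries the FMN and NADH site, at chr19:4012446-4013161, with percentiles of 98.3 and 98.9 in siControl and 99.0 and 98.6 in siChst7. Ndufs8, an iron-sulfur subunit, followed at chr19:3912473-3913293 with 98.7 and 99.0, and 99.1 and 97.6. The lowest belonged to Ndufs4, an accessory subunit of the NADH-oxidizing arm, at chr13:114387346-114388322, with 44.7 and 58.1 in siControl and 41.4 and 39.7 in siChst7. Ndufs6 reached 62.4 and 53.9, and 44.4 and 55.9, and its groups overlapped. The remaining 33 strongest regions of complex I had mean percentiles between those of Ndufs6 and Ndufs8. By fold enrichment Ndufs4 was not lowest. It had 10.4 and 13.3 in siControl and 10.7 and 9.62 in siChst7, against 6.35 and 6.05, and 6.11 and 6.17, at Ndufb10. Ndufb4 itself, at chr16:37653808-37654760, had 89.6 and 91.3 in siControl and 90.0 and 91.0 in siChst7. The nearest regions to Ndufb4b (chr19:25033108-25033578) and Ndufb4c (chr15:73809449-73809933) lay 28.2 and 17.2 kb away. Reads from near-identical copies can be lost or misplaced by alignment, and whether Ndufb4b and Ndufb4c could be mapped uniquely was not tested.

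Among the assembly factors, which help build complex I and are not part of the finished enzyme, Ndufaf8 was highest. Its region at chr11:120098403-120099483, shared with Tepsin, had percentiles of 98.6 and 98.9 in siControl and 99.2 and 98.5 in siChst7. Ndufaf6 was lowest, at 59.4 and 58.8, and 57.3 and 58.5. Their median was 87.5.

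Complex II, whose 4 subunits oxidize succinate, had the narrowest range. The percentiles of Sdha, the flavoprotein, were 87.7 and 89.7 in siControl and 88.2 and 87.8 in siChst7. Those of Sdhb, the iron-sulfur subunit, were 94.2 and 95.2, and 96.1 and 94.3. The membrane anchors Sdhc and Sdhd had 90.7 and 91.9, and 88.2 and 88.2, for the former, and 96.6 and 95.0, and 95.9 and 94.3, for the latter. Only at Sdhc did the 2 groups not overlap.

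Complex III had a median percentile of 93.0, and its lowest strongest region, that of Uqcr10, still had a mean of 83.5. Uqcrq, which binds near cytochrome b, was highest at chr11:53430347-53431677, with 98.5 and 98.3 in siControl and 99.0 and 98.4 in siChst7. The Rieske iron-sulfur protein gene Uqcrfs1 had 93.7 and 94.1, and 96.4 and 94.1. The core protein gene Uqcrc1 had 93.8 and 94.1, and 93.2 and 89.8.

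Ranked by −log10 q, complex V held the highest regions of these genes. Atp5b, which encodes the catalytic beta subunit, had percentiles of 99.9 and 99.9 in siControl and 99.8 and 99.7 in siChst7 at chr10:128082819-128083774, with fold enrichments of 18.1, 18.3, 16.9 and 16.9. The printed promoter of Atp5b lies within this region. By fold enrichment Ndufaf7 stood higher, at 23.1 and 21.5 in siControl and 21.5 and 20.9 in siChst7. Of the 3 genes for the membrane c subunit, which encode one mature protein, Atp5g1 had 99.7 and 99.8, and 99.8 and 99.6. Atp5g2 had 92.3 and 92.6, and 92.7 and 91.0, and Atp5g3 had 89.6 and 88.1, and 83.3 and 82.9. The order Atp5g1, Atp5g2, Atp5g3 thus held in each library, with Atp5g2 and Atp5g3 closest in siControl replicate 1. Atp5j stood at 99.0 and 99.2, and 98.6 and 99.2. Atp5l, a subunit of the membrane stalk, was lowest at 75.9 and 71.5, and 77.2 and 77.3.

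**Figure D3:**
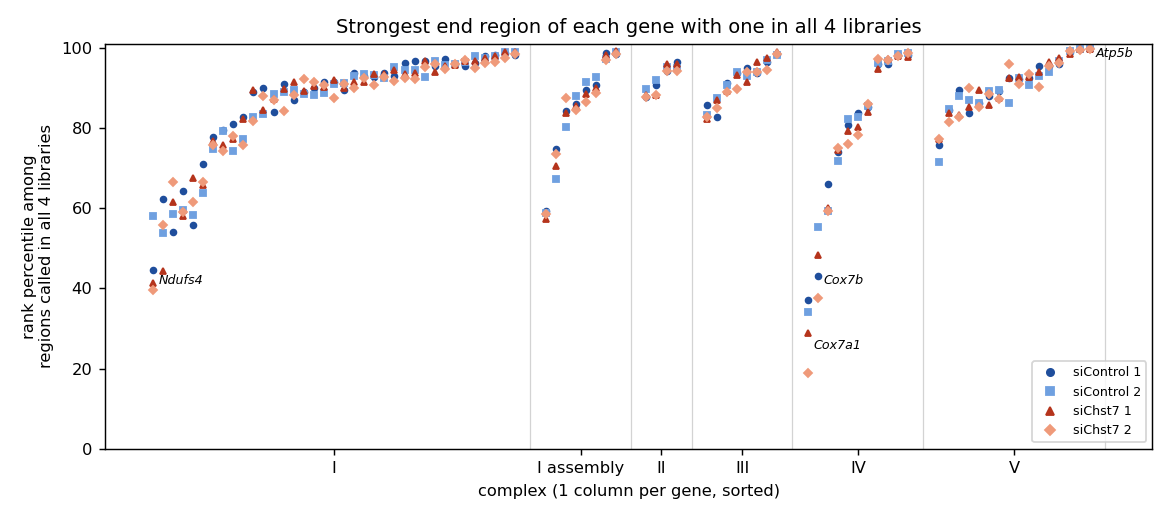
Rank percentile of the strongest end region (vertical axis) of each of the 84 genes with one in all 4 libraries, 1 column per gene, sorted within complex along the horizontal axis. Points stand for the libraries. Complex V ends with Atp5b between 99.7 and 99.9, and complex IV begins with Cox7a1 between 18.9 and 37.0.

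Complex IV reached from near the top of the ranking to well below its middle. Cox8a, a small membrane subunit, was highest at chr19:7217315-7218133, with 98.2 and 98.7 in siControl and 97.8 and 98.7 in siChst7. Cox5b, a matrix-side subunit, followed at 98.3 and 98.6, and 98.1 and 98.0. Cox7a2l, which links complexes III and IV in supercomplexes, had 96.0 and 96.8, and 97.2 and 97.0. Cox4i1, the ubiquitous form of the largest nuclear subunit, had 85.4 and 85.6, and 84.0 and 86.0. Among the subunits without a tissue label Cox7b was lowest, at 43.2 and 55.3, and 48.4 and 37.6, and its promoter had a CpG ratio of 0.37. Its fold enrichments, 5.33 and 6.55 in siControl and 5.78 and 4.97 in siChst7, lay below those of the muscle isoform Cox7a1 in each library. A weak end region was thus not particular to muscle forms.

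The 3 muscle isoforms had no end peak or a weak one, while their partners were open. Cox7a1 was the only one of them with an end peak. Its region at chr7:30183913-30184430 contains the printed promoter and the start, and had fold enrichments of 6.93 and 7.01 in siControl and 6.54 and 5.43 in siChst7. The corresponding percentiles were 37.0 and 34.2, and 29.0 and 18.9. The partner Cox7a2 stood at 97.1 and 94.6, and 95.8 and 95.4, at its internal start, so that no library brought the pair together. Cox6a2 (chr7:128205435-128206366) had no end peak. The nearest region, at chr7:128208079-128208646, lay 1.71 kb away with percentiles of 56.3 and 58.4, and 55.3 and 47.9. Cox6a1 stood at 95.9 and 96.3, and 94.8 and 97.2. Cox8b (chr7:140898942-140900446) had none either. Its nearest region, at chr7:140903062-140903756, lay 2.62 kb away with 55.9 and 58.3, and 58.4 and 34.6. Which gene these regions at a distance serve was not tested.

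The isoforms of other settings had no peak at their outer ends. Cox4i2, a lung and low-oxygen form, had its nearest outside region 1.43 kb away with percentiles of 68.0 and 72.5 in siControl and 62.0 and 68.8 in siChst7. A region inside the gene, with percentiles of 72.3 and 66.1, and 69.2 and 71.5, lay at an end of the neighbouring gene Bcl2l1. Ndufa4l2, which rises at low oxygen, had no peak at its outer ends but a region within the gene at chr10:127511716-127513713, 2.44 kb from the nearer end, with 91.9 and 88.7, and 91.4 and 84.0. This exceeded its partner Ndufa4, at 74.0 and 71.8, and 74.5 and 75.0, in each library. No listed start was available for Cox4i2 or Ndufa4l2, so the place of the regions inside these genes relative to their promoters is not analysed here. The testis forms Cox6b2, Cox7b2 and Cox8c had no region nearer than 11.5, 58.4 and 13.1 kb, and that near Cox6b2 lay at an end of Kmt5c.

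**Figure D4:**
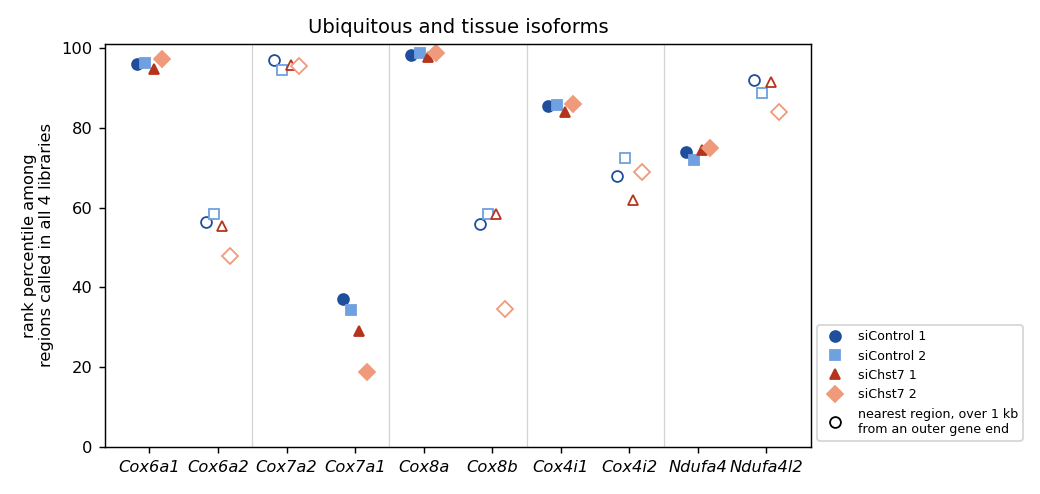
Rank percentile (vertical axis) of the end region of ubiquitous subunits and of tissue isoforms, side by side by pair along the horizontal axis. Colours and shapes mark the 4 libraries. Filled points are regions within 1 kb of an outer gene end and open points are the nearest region further away. Open points at Cox7a2 stand for the region over its own listed start, and those at Ndufa4l2 for a region inside the gene. Cox7a1 lies between 18.9 and 37.0 and Cox7a2 between 94.6 and 97.1.

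Between siChst7 and siControl no region of these genes appeared or disappeared as a group. None of the 99 regions was called in both siChst7 and neither siControl library, and none in the reverse way; a count of 0 of 99 allows a share of up to 3.03%. Of all regions 1.24% were siChst7-specific and 2.84% siControl-specific in this sense, and at gene ends 0.373% and 1.34%. These low background shares leave room for few such regions among 99. The 4 regions not called everywhere were further regions at genes with another end region in all 4 libraries. They lay at Ndufa10 (chr1:92438180-92438567, siControl replicate 2 only), at Ndufa1 (chrX:37190577-37190839, siControl replicate 1 only), at Ndufaf8 (chr11:120100988-120101296, all but siControl replicate 2) and at Atp5j and Gabpa (chr16:84835608-84836287, all but siChst7 replicate 2).

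The level of the shared regions as a set did not differ beyond the spread between libraries. The median percentile over the 95 regions averaged 89.41 ± 0.34 (SD, n = 2) in siControl and 88.91 ± 0.80 (SD, n = 2) in siChst7, a difference of −0.50 with a two-sided exact permutation p = 0.667. Ranked by fold enrichment instead of −log10 q, the difference was 0.48 (exact permutation p = 0.333, the smallest possible), and without siChst7 replicate 2 it was 0.09. The sign therefore depended on the measure and on that library. Region by region, the median absolute difference was 1.74 percentile points within siControl and 1.59 within siChst7, and between 1.33 and 2.36 across the groups, so libraries of different groups were about as close as libraries of one.

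Single regions ranked apart in both directions. With 2 libraries in each group, many regions rank apart even where the groups do not differ, so a single shift does not show an effect of siChst7. Of the 95, 15 (15.8%) ranked higher in both siChst7 than in both siControl libraries, and 29 (30.5%) ranked lower. Among all shared regions 20.2% ranked higher and 20.2% lower, and among those at gene ends 13.6% higher and 23.3% lower. The lower ones thus outnumbered the higher ones at gene ends in general as well. By fold enrichment the split became 23 (24.2%) higher and 21 (22.1%) lower, against 18.7% and 17.2% at gene ends, so the excess of lower regions was not seen on that scale. Whether the lower depth of siChst7 replicate 2 contributes to the split was not tested.

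Among the shared regions of these genes, that of Cox7a1 had the largest shift to a lower rank, just ahead of one at Ndufa13 (−11.32). In siControl the −log10 q of Cox7a1 was 26.4 and 23.9, in siChst7 it was 21.1 and 12.0, and its percentile differed by −11.65 (siChst7 minus siControl). The 2 groups did not overlap by fold enrichment either, where the difference was −7.46. Much of the difference came from siChst7 replicate 2, and it was −6.26 without that library. The siChst7 percentiles, 29.0 and 18.9, lay nearly as far apart as the group means. Ndufs4 differed by −10.81, from −4.01 without siControl replicate 2 to −17.10 without siControl replicate 1, and its groups overlapped by fold enrichment. A second region beside Uqcrh, the hinge protein of complex III, had percentiles of 12.8 and 16.5 in siControl and 8.8 and 4.8 in siChst7, a difference of −7.85, or −0.38 by fold enrichment.

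The shifts to a higher rank, like those to a lower rank, were led by regions from below the middle of the ranking. At Ndufa13, an accessory subunit of complex I also known as GRIM-19, 4 regions lay at the ends of the gene. That at chr8:69893788-69894280 had 27.2 and 21.9 in siControl and 43.3 and 34.7 in siChst7, a difference of 14.46. Another pair at the same gene ranked lower: chr8:69903233-69903481 by −11.32 (−2.43 by fold enrichment) and chr8:69894637-69895192 by −6.40. The strongest, at chr8:69901258-69902024, overlapped between the groups. The far end of Uqcrc1 (chr9:108949887-108950370) had 9.0 and 4.3, and 24.3 and 12.8. It differed by 11.88, or by 6.56 without siChst7 replicate 1 and 19.86 without siChst7 replicate 2, and its groups overlapped by fold enrichment. Ndufa9, a subunit at the junction of the arms of complex I, had 55.9 and 58.4, and 67.6 and 61.5. It differed by 7.39, or by 4.27 without siChst7 replicate 1 and 12.01 by fold enrichment. The weak second region at Atp5h, a stalk subunit, had 31.1 and 26.6, and 28.4 and 44.7, and overlapped.

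**Figure D5:**
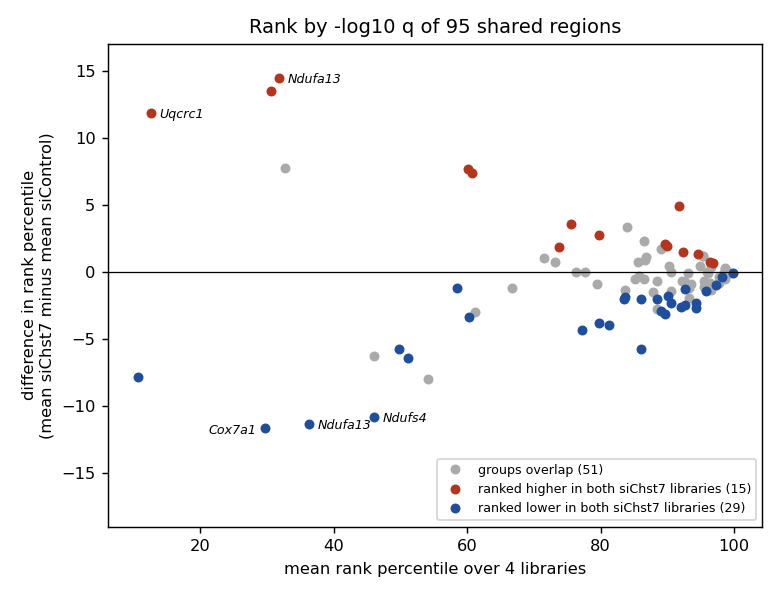
Difference in rank percentile between the groups (vertical axis, mean siChst7 minus mean siControl) against the mean percentile over the 4 libraries (horizontal axis) for the 95 regions called in every library. Each point is a region; red points ranked higher in both siChst7 libraries (15), blue points lower (29), and grey points overlapped (51). Points at the right, the strongest regions, lie mostly close to 0, and the labelled ones differ by over 10 points.

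More of these promoters than of all promoters held NRF1, ETS and YY1 matches. Of the 78 promoters, 41 (52.6%) held an exact ETS, NRF1 or YY1 match in the 300-base window, against 21.2% of all 17491 promoters and 34.0% of those with a start peak in all 4 libraries. NRF1 matches were found in 21 (26.9%; 8.83% of all and 14.6% of those with a start peak), ETS matches in 18 (23.1%; 11.9% and 19.3%) and YY1 matches in 10 (12.8%; 3.22% and 4.96%). Among the 74 of these genes with a start peak, the shares were 28.4% for NRF1, 24.3% for ETS and 13.5% for YY1. Beside all promoters with a start peak, the excess for ETS was thus small. The ERR motif was found in 4, Atp5g3, Atp5l, Ndufs5 and Sdhd (5.13%; 1.34% and 0.909%). SP matches were in 35 (44.9%), close to the 46.3% of all promoters and below the 66.5% of those with a start peak. Of the motifs of the induced factors' families, MEF2 was matched in 0 (2.20% of all and 1.08% of those with a start peak) and T-box in 2 (2.56%; 5.34% and 3.97%). GATA was matched in 6, Cox7a1 among them (7.69%), which lay below the 9.96% of all promoters and above the 5.61% of those with a start peak. AP-1 was matched in 7 (8.97%; 7.08% and 4.80%), the E-box in 6 (7.69%; 7.90% and 10.4%) and TATA in 8 (10.3%; 13.3% and 6.67%). These are counts of letters in fixed windows and do not show that a factor was bound. The median CpG ratio was 0.83, against 0.58 over all promoters and 0.78 over those with a start peak, and the 4 promoters without a start peak had a median of 0.42.

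Genes outside the naming rule that build the complexes or carry electrons between them were accessible about as widely. Of 42 such genes, 41 (97.6%) had an end peak in all 4 libraries, and Atpaf2, an ATP synthase assembly factor, had none. Cytochrome c (Cycs) had percentiles of 97.6 and 98.8 in siControl and 98.6 and 98.6 in siChst7. Among the 41 strongest regions 4 ranked higher and 11 lower with siChst7, near the 13.1% and 23.0% over the strongest end regions of all genes. Atpaf1, the partner of Atpaf2 in assembling the catalytic head, was among the latter, at 31.6 and 42.7, and 13.1 and 25.4, and its name was chosen after these values were seen. Of 16 regulators of mitochondrial genes, 13 had an end peak in all 4 libraries, and Gabpb1, Esrrb and Esrrg had none. Outer ends alone were used for these lists, so an open start inside the gene, as at Cox5a, would be missed at Gabpb1 or Atpaf2. Of the 13, 1 ranked higher with siChst7, the orphan receptor gene Esrra, and 4 lower: Nrf1, Yy1, Ppargc1a and Ppargc1b. Against the same 13.1% and 23.0%, these counts do not set the regulators apart. The coactivator gene Ppargc1a had 89.6 and 87.4, and 74.8 and 87.0, so siChst7 replicate 2 lay just below siControl replicate 2. Of 7 genes that move adenine nucleotides or phosphocreatine, 4 had an end peak in all 4 libraries. The muscle form of the nucleotide translocator, Slc25a4, was open at 96.4 and 96.2, and 96.1 and 97.4, and the muscle creatine kinase gene Ckm was weak at 49.9 and 32.6, and 30.3 and 37.9. The mitochondrial muscle form Ckmt2 and the testis translocator Slc25a31 had no end peak, and Ckmt1 had one in 1 library.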

How the data were processed

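The 4 lists of ATAC-seq peaks were used, 1 per library, and peaks had been called per library without pooling, as the peak names in the deposited files record. Build mm10 and the tools HOMER, bedtools, MACS3, SAMtools and Bowtie appear, without versions or roles, in the submitters' processing notes; what was done about duplicates, mitochondrial reads and Tn5 offsets is not given in the sources used here. The deposited score is the −log10 q times 10, as an integer. The authors' fold enrichment is a ratio of summit pileup to local background, and their deposited −log10 p and −log10 q refer to the summit. The lowest −log10 q was 2.00 to 2.02, and read totals are unknown. The relative read density was recovered from the steps of the fold enrichment at weak peaks and the narrowest peak, and it covers only the depth behind these lists.

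Peaks on chromosomes 1 to 19, X and Y were merged at 1 bp overlap; peaks on unplaced sequences were left out. Outer gene ends were taken from RefSeq's table of genes for GRCm38.p6, which gives no strand, so distances ran to either outer end within 1 kb. Strands and starts came from the RefSeq promoter table, which held 78 of the 96 genes. All assignments to exons or introns were left out. Ranks were taken over regions called in all 4 libraries, by the highest −log10 q in the region, so lists of equal length were compared. Groups were called apart when both libraries of one lay above both of the other. Medians and shares per library were compared by two-sided exact permutation tests over libraries. The steps were tested on simulated data. Named genes were all tissue isoforms and partners, genes lacking an end peak, regions called in both libraries of only one siRNA, the 8 highest and 8 lowest shared regions, the 5 largest shifts in each direction and the highest gene of each complex; 1 gene that this rule names is not reported here; others illustrate roles and were named with their values known. Alternatives changed the window, peak threshold, list length, peak extent and width, merging overlap, rank measure, start definition and libraries. The genes, lists and tests were chosen with earlier results of these data known. Python 3.11.15, pandas 2.3.3, numpy 2.4.6 and scipy 1.17.1 were used.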

Additional observations from a re-analysis of the deposited data

How the results depend on the processing

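Of the recomputed values of the main results, 14 moved past the limit set for their kind, 2 reversed and 178 did neither, although values among the latter changed too (the median difference was −0.25 without siControl replicate 1); with single genes and regions, 561 values were recomputed. The number of genes with an end peak in all libraries stayed between 82 and 87 of 96 where the outer ends were used. With a window of 2.5 kb, 1 region became siControl-specific and the tissue isoforms with an end peak rose to 3, as Cox4i2 and Cox6a2 came within reach; Atp5d was gained too, and Ndufa4l2 in 1 library. With a −log10 q of at least 5, 1 region became siControl-specific. With listed starts only, complex III came to 5, because only 5 of its genes are in the promoter table, and Cox5a, Cox7a2 and Atp5d were open in all 4 libraries. By fold enrichment 23 regions ranked higher, and the median difference was 0.48; the cause was not tested. The regions of Uqcrc1 (4.20) and Ndufs4 (−7.47) then overlapped between the groups. Leaving out 1 library at a time gave 0 to 1 siChst7-specific and 0 to 1 siControl-specific regions, 22 to 29 ranked higher and 39 to 49 ranked lower, where fewer libraries make both counts larger by construction, and median differences from −1.04 to 0.09, the last without siChst7 replicate 2. With the replicate number as a replicate block, the difference in the share of genes with an end peak was 0.00 (exact permutation p = 1) and that in the median percentile −0.50 (exact permutation p = 0.5, the smallest possible). The deviations of libraries with the same number had a correlation of 0.01, and those with crossed numbers −0.01. With 2 libraries in each group the second value is not an independent check. What libraries with the same number share is not given in the labels. Depth limits the comparison of groups, since the shallowest library was in the siChst7 group, and no read totals were at hand to scale the regions.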

Other observations

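The mitochondrial genome, which encodes the other subunits of complexes I, III, IV and V, carried 4 listed peaks in each library, left out of the regions above. They were broad and shallow. The widest ran from 123 to 4686 in siControl replicate 1, and the one from 12000 to 15978 had the highest fold enrichment, at 2.24 and 1.72 in siControl and 2.21 and 2.24 in siChst7. The other 3 peaks had fold enrichments of 1.41 to 1.59, lower than nearly all peaks of the nuclear genome. ND1, ND6 and CYTB were covered over their whole length in every library, and COX2, ATP8, ATP6, COX3, ND3 and ND4L were covered nowhere. Mitochondrial DNA has no nucleosomes and is present in many copies, so these values describe where reads gathered on that molecule and cannot be set beside accessibility at nuclear genes.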
